A study of Rattus norvegicus with 9 samples.

Results

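The BCL2 family death regulators are described here in cultured rat smooth muscle cells from pulmonary arteries (PASMCs), which form the muscular layer of the vessel wall and set its width by contracting. The 10 genes were chosen by name: Bcl2, Bcl2l1, Mcl1, Bax, Bak1, Bcl2l11, Bad, Bid, Bbc3 and Pmaip1. Of these 10 genes, 9 were represented on the array, by 17 of its 41012 non-control probes, and no probe matched Pmaip1. A probe was kept when, in 1 group or more, every array read it well above background. This left 16 family probes of 26654 kept in all, and 9 family genes of the 22107 genes tested. The cells came from male Sprague Dawley (SD) rats at culture generation 4, and the labels give no number of animals or cultures. The 3 normoxia samples were held in a normoxic incubator at 37 °C and the 3 hypoxia samples in an airtight chamber under 1% oxygen with 5% carbon dioxide. The 3 hypoxia+quercetin samples were held in hypoxia and received quercetin, a plant flavonol at a dose that the sources used here do not give. All cells first went 24 h without serum, and the protocol then gives quercetin or 0.1% DMSO for 24 h in medium with 10% serum, without saying for each group whether DMSO was added. Total RNA was read on 1-colour Agilent rat expression arrays, 1 array per sample.

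Proteins of the BCL2 family decide whether the outer mitochondrial membrane is opened, the step that releases cytochrome c and starts the caspases of the intrinsic death pathway. Guardians such as BCL2, BCL-XL and MCL1 hold the pore-forming effectors BAX and BAK in check. BH3-only proteins such as BIM, BAD, BID, PUMA and NOXA sense stress and either occupy the guardians or activate the effectors. In pulmonary hypertension, smooth muscle cells of the lung arteries accumulate, and resistance to this form of death is one of the features they are known for.

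The probes are 60 bases long, and those that lie in protein-coding sequence are shown because several genes were read by more than 1 probe, and the results below turn on which stretch of a transcript a probe reads. The sequences are those of the deposited scanner files. Capitals mark the start codon in the first Bcl2l1 probe, an ATG in the Bad probe, and in the Bax probe the codons for the central residue pair of the BH3 motif, the helix through which family members bind each other.
Bcl2: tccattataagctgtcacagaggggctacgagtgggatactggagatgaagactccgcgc
Bcl2l1, first probe: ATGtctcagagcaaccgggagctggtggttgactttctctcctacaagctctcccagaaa
Bcl2l1, second probe: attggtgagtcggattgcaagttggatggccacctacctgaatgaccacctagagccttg
Bax: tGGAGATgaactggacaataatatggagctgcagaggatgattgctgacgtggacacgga
Bcl2l11: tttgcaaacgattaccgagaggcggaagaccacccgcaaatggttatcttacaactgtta
Bad: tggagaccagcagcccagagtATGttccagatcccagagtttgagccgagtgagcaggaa
Bid: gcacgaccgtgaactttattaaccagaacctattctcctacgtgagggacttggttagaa
The Bad probe crosses a splice junction, since its 60 bases cover 496 bases of the genome. Probe positions below are on build rn4 as the scanner files give them, and no gene annotation of that build was used here.

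Between 65.1% and 74.3% of probes were well above background on the normoxia arrays, 53% to 66.6% on the hypoxia arrays and 53.9% to 68.7% on the quercetin arrays. Normoxia replicates 1 and 2 lay on a slide scanned on an earlier day than the others. A later slide held normoxia replicate 3 beside the hypoxia arrays, and the quercetin arrays had a slide to themselves. Fitting slide as a block therefore compared hypoxia with normoxia replicate 3 alone, and for quercetin against hypoxia slide and treatment cannot be told apart. Fitting scan day as a block likewise compared the quercetin arrays with normoxia replicate 3 alone. Smooth muscle identity was read from 13 of 14 listed markers that were measured, with Myh11, Cnn1 and Tagln well above background on all 9 arrays. Pecam1, Epcam, Cdh1 and Cd3e, which define endothelial, epithelial and T cells, were well above background on 0 arrays. The endothelial Vwf was so on 2 arrays and the leukocyte Ptprc on 6. Other markers of the same lists were well above background on all 9 arrays. Among them were Erg (endothelial), Krt7, Krt18 and Msln (epithelial) and Cd14, Cd68, Cd74 and Lyz2 (leukocyte). Marker levels moved between the groups all the same. The summed log2 level of 6 measured epithelial markers of 11 ran from 4.36 to 4.49 on normoxia arrays, from 6.05 to 6.23 on hypoxia arrays and from 3.91 to 4.07 on quercetin arrays. That of the 13 smooth muscle markers was 10.16 to 10.56, 11.02 to 11.15 and 10.21 to 10.38 in the same order. For 9 of 10 fibroblast markers it was 9.72 to 9.81, 10.23 to 10.36 and 9.67 to 9.91, and for 3 of 10 endothelial markers 1.12 to 1.39, -0.95 to -0.78 and -0.34 to -0.07. For 7 of 12 leukocyte markers it was 2.30 to 2.58, 2.18 to 2.30 and 1.81 to 1.85. Each sum follows its brightest markers and can hide opposite changes of single genes. In hypoxia 4 fibroblast markers rose and 3 (Dcn, Lum and Fap) fell against normoxia at a limma adjusted p under 0.05. The fibroblast sum rose all the same. Among endothelial markers 0 rose and 1 (Erg) fell. Among leukocyte markers 4 rose and 1 (Cd14) fell, although their sum did not rise. For smooth muscle markers it was 7 and 0, and for epithelial markers 4 and 0. The part of these shifts in the family's values was not tested, and fewer cells of a type and less RNA per cell cannot be told apart in bulk RNA.

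Most family genes fell in hypoxia. Against normoxia, 2 of the 9 measured genes rose, Bcl2l11 and Bbc3, and 6 fell, Bad, Bid, Bax, Bcl2, Bcl2l1 and Bak1, while Mcl1 did not pass the test. A gene passed at a Benjamini-Hochberg adjusted p under 0.05 in the limma fit over all genes, and 64.2% of all genes did so in this comparison, 35.3% higher and 28.9% lower. The family's count of changed genes therefore has to be read against a background in which most genes changed. The median change was -0.63 (log2) over the family and 0.10 over all genes. In all 9 family genes the 3 hypoxia arrays lay wholly on one side of the 3 normoxia arrays, as they did for 71.7% of all genes. Scaled on 6 spike-in probes in place of the 75th percentile, all genes had a median of -0.40 in place of 0.10, and the family then showed 1 gene higher and 6 lower. All genes were split 7803 higher to 6392 lower in the main scaling and 2676 to 10805 on spike-ins.

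With quercetin in hypoxia, 5 of the 9 genes rose against hypoxia alone, Bcl2, Bcl2l1, Bax, Bak1 and Bad, and Bbc3 fell. Bcl2l11, Bid and Mcl1 did not pass. Over all genes 58.4% passed, 26.9% higher and 31.6% lower. The median change was 0.31 over the family and -0.08 over all genes, and 6 family genes had groups that did not overlap, against 71.1% of all genes. The count of 6 rested on single arrays: 3 genes passed without hypoxia replicate 2 and 3 without quercetin replicate 3. With normexp background correction 0 of 9 passed by limma, and 1 had an unadjusted p under 0.05 (6 in the main setting). With quantile normalization the split was 5 higher and 0 lower.

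Hypoxic cells with quercetin still differed from normoxic cells in 5 of the 9 genes. Bcl2l11 and Bcl2 were higher, and Bad, Bid and Bax were lower, with 44.3% of all genes passing, 23.0% higher and 21.3% lower. Bcl2l1, Bak1, Mcl1 and Bbc3 did not pass. The median change was -0.13 over the family and 0.04 over all genes, and 5 family genes had groups that did not overlap, against 53.6% of all genes. Spike-in scaling gave 1 gene higher and 5 lower, with all genes split 1688 to 9812 in place of 5084 to 4709. With scan day as a block 3 family genes passed. This comparison and the one against hypoxia share the quercetin arrays, and each of them shares 3 arrays with hypoxia against normoxia, so the 3 sets of changes are not independent.

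**Figure D1:**
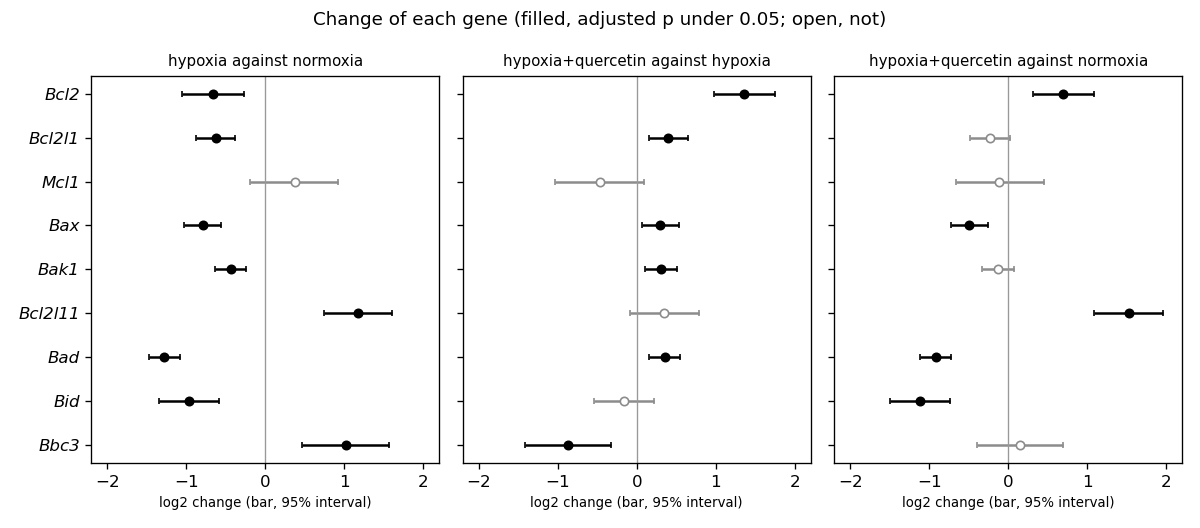
Log2 change of the 9 measured family genes (rows) in the 3 comparisons (panels), with 95% confidence intervals from limma on 3 arrays per group. Filled points passed at an adjusted p under 0.05: 8 for hypoxia over normoxia, 6 for quercetin over hypoxia and 5 for quercetin over normoxia. Bcl2 lies on opposite sides of 0 in the first and second panels, and Bad and Bid lie left of 0 in both comparisons with normoxia.

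Bcl2, the founding guardian of the family, was dim on these arrays. Levels are given as log2 intensity relative to the 75th percentile of the array, so that 0 is that percentile. The probe that stood for the gene, annotated to the Bcl-2 beta transcript at chr13:12903960-12904017 on the minus strand, read -3.90, -3.36 and -3.77 in normoxia. It read -4.20, -4.23 and -4.57 in hypoxia and -2.80, -3.13 and -2.98 with quercetin. The 3 groups did not overlap: hypoxia was lowest and quercetin highest. Bcl2 fell by 0.66 ± 0.17 (log2, SE) in hypoxia (adjusted p = 0.0089), rose by 1.36 ± 0.17 with quercetin against hypoxia (2.3e-04) and stood 0.70 ± 0.17 above normoxia with quercetin (0.0099). These are 1.58-fold, 2.57-fold and 1.63-fold. The probe was well above background on 2 of the 3 hypoxia arrays and on all others, so the folds against hypoxia rest in part on a signal near background.

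The second Bcl2 probe, the coding sequence printed first, lies at chr13:12904758-12904817 on the same strand and was spotted 10 times per array. It read -4.69, -4.60 and -4.43 in normoxia, -5.32, -5.72 and -5.46 in hypoxia and -3.84, -4.03 and -3.80 with quercetin, in the same order of groups and with no overlap. It was well above background on 3 normoxia arrays, on 0 hypoxia arrays and on 2 quercetin arrays. It thus passed the filter through normoxia alone, so its order of groups gives the first probe no support. Only folds against a floor are given. The floor was each array's lowest signal well above background. With hypoxia set to it, Bcl2 was 1.11-fold lower in hypoxia than in normoxia by this probe. With quercetin it was 1.79-fold higher than in hypoxia, by a mean that includes quercetin replicate 1, which was not well above background. The floor does not cap a signal that is not well above background, so these folds are not strict bounds. With slide as a block the fall of the first probe in hypoxia was -0.57 (adjusted p = 0.10), and with normexp -0.21 (0.76). The rise with quercetin against hypoxia was 0.72 with normexp (0.16), and the difference from normoxia was 0.50 (0.43) with normexp, 0.30 (0.23) on spike-ins and 0.80 (0.052) with scan day as a block.

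Bcl2l1 encodes the guardian BCL-XL. Its brightest probe, at chr3:143129343-143129402 on the minus strand, lies 49.2 kb from the first coding probe and read 2.85, 2.96 and 2.68 in normoxia. In hypoxia it read 2.26, 2.11 and 2.21, and with quercetin 2.69, 2.44 and 2.66. Hypoxia was below both other groups on every array, while quercetin and normoxia met. The gene fell by 0.63 ± 0.11 in hypoxia (adjusted p = 0.0012) and rose by 0.40 ± 0.11 with quercetin against hypoxia (0.013). The rise was 0.36 (0.050) without hypoxia replicate 2 and 0.28 (0.19) with normexp. Against normoxia it stood at -0.23 ± 0.11 with quercetin (0.12), with a 95% interval from -0.48 to 0.02, and at -0.63 (0.0061) on spike-ins.

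The coding probes of Bcl2l1 moved the same way. The first probe, at the start codon (chr3:143178503-143178562), changed by -0.54 in hypoxia and by 0.30 with quercetin against hypoxia, where it did not pass (adjusted p = 0.059, over probes). The second probe (chr3:143178021-143178080) changed by -0.71 and 0.32, and passed in the latter comparison (0.032). One more probe, at chr3:143177104-143177163 and 917 bases from the second, was not well above background on all arrays of any group and was not tested. Of all kept probes tested on their own, 64.3% passed for hypoxia over normoxia, 58.7% for quercetin over hypoxia and 44.6% for quercetin over normoxia.

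Mcl1, a short-lived guardian that is made and broken down quickly, gave opposite readings at its pair of probes. The brighter probe, at chr2_random:2891685-2891744 on the minus strand, read 3.73, 3.62 and 3.59 in normoxia and 4.04, 4.00 and 3.99 in hypoxia. With quercetin it read 3.19, 4.20 and 3.23. Hypoxia was above normoxia on every array, and quercetin replicate 2 lay above all other arrays while replicates 1 and 3 lay below them. The changes were 0.37 ± 0.24 in hypoxia (adjusted p = 0.22), -0.47 ± 0.24 with quercetin against hypoxia (0.13) and -0.11 ± 0.24 against normoxia (0.75). Their 95% intervals ran from -0.19 to 0.92, from -1.03 to 0.09 and from -0.66 to 0.45. Without quercetin replicate 2 the same changes were 0.37 (0.0035), -0.80 (2.3e-04) and -0.44 (0.0047), and all passed.

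The dimmer Mcl1 probe lies 224 bases away, at chr2_random:2891461-2891520, and read 2.56, 2.55 and 2.47 in normoxia. In hypoxia it read 1.86, 1.84 and 1.83, and with quercetin 1.80, 2.53 and 1.80. Here hypoxia lay below normoxia on every array, by -0.68 ± 0.18 (adjusted p = 0.011, over probes). Quercetin replicate 2 again stood apart, near normoxia, while replicates 1 and 3 stood just under hypoxia. The changes with quercetin were 0.20 against hypoxia (0.37) and -0.48 against normoxia (0.063). Averaged over both probes, Mcl1 changed by -0.16 in hypoxia (0.54), and the brighter probe read -0.14 (0.57) on spike-ins, so no direction of Mcl1 in hypoxia held under every setting.

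The gap between the Mcl1 probes is a value within each array, which subtracting 1 constant per array (a percentile, the median or the spike-ins) cannot move. The brighter exceeded the dimmer by 1.17, 1.07 and 1.12 in normoxia, by 2.18, 2.16 and 2.16 in hypoxia and by 1.39, 1.67 and 1.43 with quercetin. The 3 groups did not overlap, and the spread within a group was small beside the distance between them: the means were 1.12 ± 0.05, 2.17 ± 0.01 and 1.50 ± 0.15 (SD, n = 3). Among the quercetin arrays the gap was widest in replicate 2. In Bcl2l1, Bax, Bad and Bid the mean gap between probes moved by less: from 3.82 to 3.89 and 3.98 in Bcl2l1, 2.84 to 2.91 and 3.05 in Bax, 2.22 to 1.95 and 2.17 in Bad and 2.04 to 1.90 and 1.94 in Bid, in the order normoxia, hypoxia and quercetin. The gap in Bcl2 is not given, since its dimmer probe was not well above background in hypoxia.

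**Figure D2:**
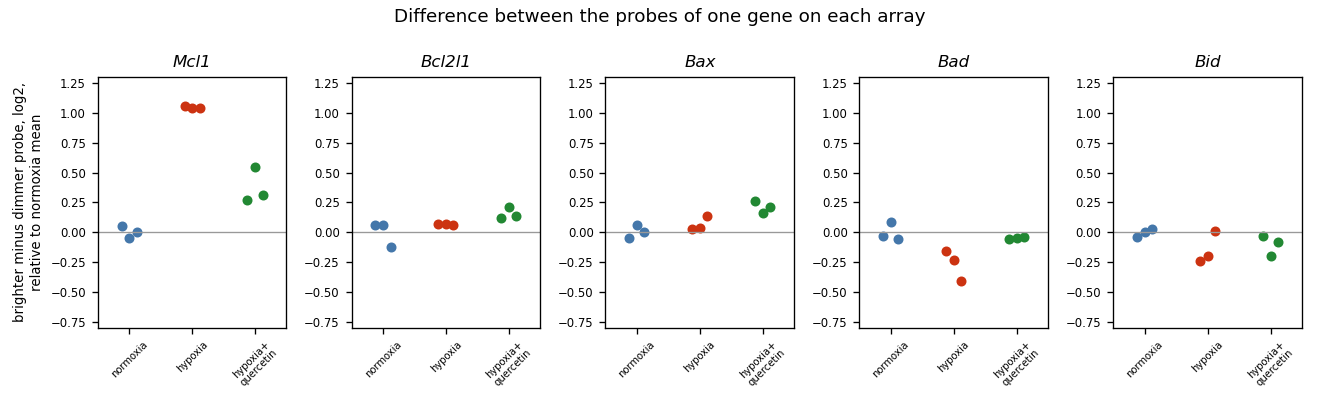
Difference between the brighter and the dimmer probe of 1 gene on each array (y axis, log2, relative to the normoxia mean) for 5 genes with 2 kept probes compared (Bcl2 left out), by group (x axis). Each point is 1 array. In Mcl1 all 3 hypoxia arrays stand above 1 and the normoxia arrays close to 0, with the quercetin arrays between them.

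Bax encodes one of the pore-forming effectors. Its brighter probe, at chr1:95932941-95933000 on the minus strand, read 4.93, 4.90 and 4.80 in normoxia, 4.06, 3.92 and 4.26 in hypoxia and 4.46, 4.33 and 4.36 with quercetin. Normoxia was highest and hypoxia lowest, with no overlap among the 3 groups. Bax fell by 0.79 ± 0.10 in hypoxia (adjusted p = 2.6e-04), or 1.73-fold, and with quercetin it remained 0.49 ± 0.10 (1.40-fold) below normoxia (0.0055). The latter value was -0.41 (0.078) with scan day as a block, -0.54 (0.077) with normexp and -0.89 (4.5e-04) on spike-ins.

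The rise of Bax with quercetin against hypoxia was small, 0.30 ± 0.10 (adjusted p = 0.034), and did not hold without hypoxia replicate 1 (0.29, 0.089), hypoxia replicate 2 (0.22, 0.13), quercetin replicate 1 (0.26, 0.10) or quercetin replicate 3 (0.32, 0.072). It was 0.53 (0.0023) with quantile normalization and 0.18 (0.52) with normexp. The BH3 probe of Bax, which the files place at no genome position, read 2.14, 2.00 and 1.96 in normoxia, 1.19, 1.04 and 1.28 in hypoxia and 1.36, 1.33 and 1.31 with quercetin. By this probe too the groups did not overlap. It changed by -0.87 in hypoxia, by 0.17 with quercetin against hypoxia (0.15, over probes) and by -0.70 with quercetin against normoxia (5.2e-04).

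Bak1 encodes the other effector, BAK. Its probe at chr20:5256042-5256101 (minus strand) read 3.79, 3.88 and 3.91 in normoxia, 3.48, 3.32 and 3.47 in hypoxia and 3.74, 3.64 and 3.80 with quercetin. All hypoxia arrays were below the other 6, and quercetin and normoxia overlapped. Bak1 fell by 0.44 ± 0.09 in hypoxia (adjusted p = 0.0025), the smallest of the 6 falls, and rose by 0.31 ± 0.09 with quercetin against hypoxia (0.015). With quercetin it stood at -0.13 ± 0.09 from normoxia (0.25; 95% interval from -0.33 to 0.07), and at -0.53 (0.0051) on spike-ins. The fall was -0.40 (0.074) with normexp. The rise did not pass without hypoxia replicate 2 (0.26, 0.066), without quercetin replicate 3 (0.27, 0.060) or with normexp (0.20, 0.38), and was 0.51 (0.0013) with quantile normalization.

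**Figure D3:**
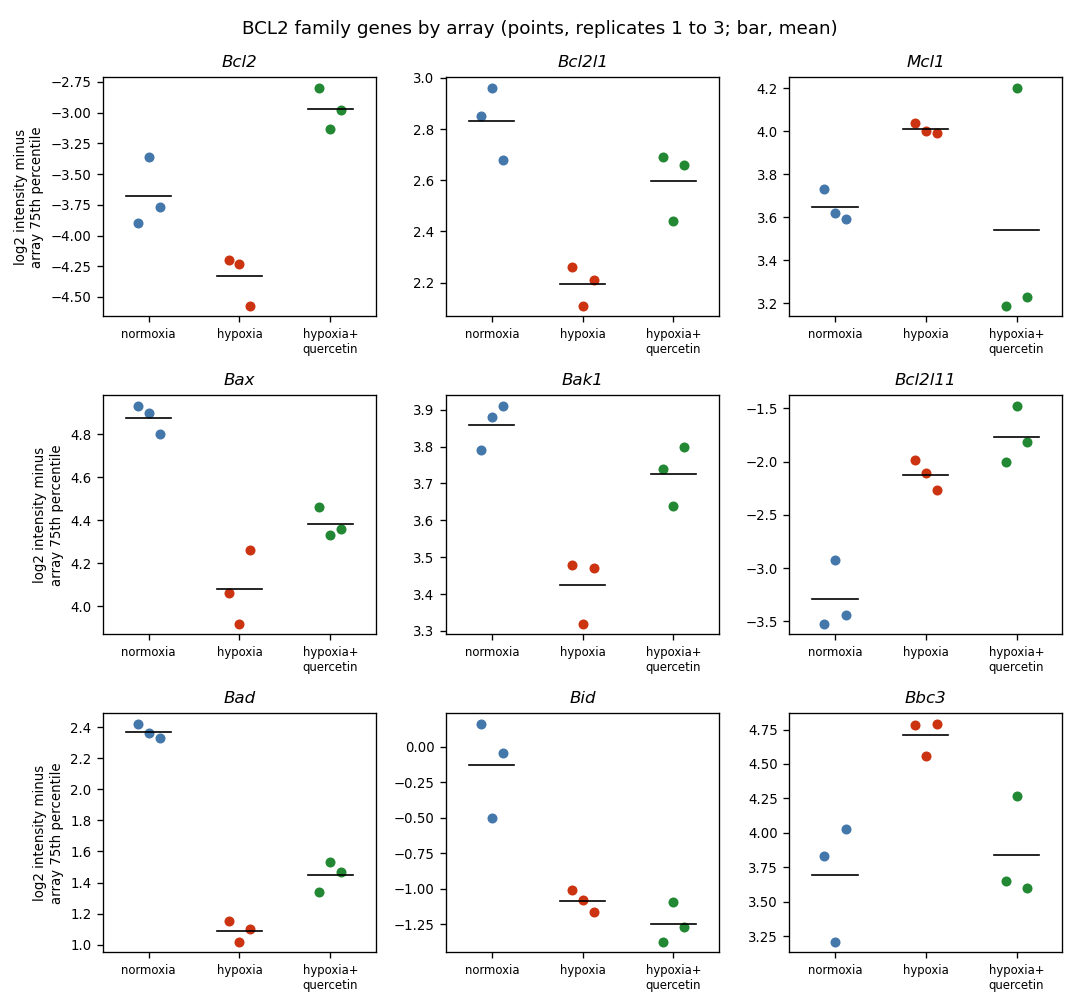
Level of the 9 measured family genes on each of the 9 arrays (y axis, log2 intensity minus the array's 75th percentile, with its own range in each panel) by group (x axis). Points are replicates 1 to 3 from left to right and bars are means. In Mcl1 quercetin replicate 2, at 4.20, stands apart from replicates 1 and 3, at 3.19 and 3.23, and in Bcl2, Bax and Bad the 3 groups do not overlap.

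Bcl2l11 had the larger of the family's rises in hypoxia among the 10 genes chosen. It encodes BIM, which can bind all the guardians and activate the effectors. Its probe at chr3:115722606-115722665 on the plus strand read -3.52, -2.92 and -3.44 in normoxia, -1.99, -2.11 and -2.27 in hypoxia and -2.00, -1.48 and -1.82 with quercetin. Both hypoxic groups lay above normoxia on every array and overlapped each other. Bcl2l11 rose by 1.17 ± 0.19 in hypoxia (2.26-fold, adjusted p = 8.7e-04) and was 1.53 ± 0.19 above normoxia with quercetin (2.88-fold, 4.1e-04). Its change with quercetin against hypoxia was 0.35 ± 0.19 (0.14), with a 95% interval from -0.08 to 0.79. Normexp gave 0.49 (0.26) in hypoxia and 0.89 (0.079) with quercetin against normoxia, and spike-in scaling 0.67 (0.011) in hypoxia.

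Bbc3, which encodes PUMA, was the other family gene that rose in hypoxia. Its single probe, for which the files give no genome position, read 3.83, 3.21 and 4.03 in normoxia, 4.78, 4.56 and 4.79 in hypoxia and 3.65, 4.27 and 3.60 with quercetin. Hypoxia was above the other 6 arrays, and quercetin and normoxia overlapped in part. Quercetin replicate 2, the array that stood apart in Mcl1, was also the highest of its group here. Bbc3 rose by 1.02 ± 0.24 in hypoxia (2.03-fold, adjusted p = 0.0062) and fell by 0.87 ± 0.24 with quercetin against hypoxia (1.83-fold, 0.014). With quercetin it stood at 0.15 ± 0.24 from normoxia (0.65; 95% interval from -0.40 to 0.70), a value with no settled direction: it was -0.25 on spike-ins, -0.19 with scan day as a block, -0.09 without normoxia replicate 2 and -0.06 without quercetin replicate 2.

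The calls of Bbc3 depended on the setting. The rise in hypoxia was 0.68 (adjusted p = 0.12) with slide as a block and 0.52 (0.058) on spike-ins. The fall with quercetin was -0.63 (0.053) with quantile normalization, -0.63 (0.054) in the deposited value table, -0.96 (0.063) with normexp and -0.75 (0.053) without quercetin replicate 3.

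Bad showed the largest fall of the family. BAD binds BCL2 and BCL-XL and is held inactive by 14-3-3 proteins when it is phosphorylated. Its brighter probe, at chr1:209626000-209626059 on the plus strand, read 2.42, 2.36 and 2.33 in normoxia, 1.15, 1.02 and 1.10 in hypoxia and 1.34, 1.53 and 1.47 with quercetin. The groups did not overlap, and quercetin lay nearer to hypoxia than to normoxia. Bad fell by 1.28 ± 0.08 in hypoxia (2.43-fold, adjusted p = 8.4e-06), rose by 0.36 ± 0.08 with quercetin against hypoxia (1.28-fold, 0.0069) and remained 0.92 ± 0.08 below normoxia (1.90-fold, 9.0e-05). The rise was 0.28 (0.19) with normexp. The splice-junction probe, at chr1:209617478-209617973, read 0.23, 0.05 and 0.17, then -0.91, -0.97 and -0.71, then -0.82, -0.64 and -0.71 in the same order of groups. By it Bad changed by -1.01 in hypoxia and by -0.87 with quercetin against normoxia, while its quercetin and hypoxia arrays overlapped (0.14, adjusted p = 0.26).

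Bid couples death receptors to the mitochondrion once caspase-8 has cut it. Its brighter probe, at chr4:157295949-157296008 on the minus strand, read 0.16, -0.50 and -0.04 in normoxia, -1.01, -1.08 and -1.16 in hypoxia and -1.37, -1.09 and -1.27 with quercetin. Both hypoxic groups lay below normoxia on every array and overlapped each other. Bid fell by 0.96 ± 0.16 in hypoxia (1.94-fold, adjusted p = 0.0012) and was 1.12 ± 0.16 below normoxia with quercetin (2.17-fold, 9.5e-04). With quercetin against hypoxia it changed by -0.16 ± 0.16 (0.44; 95% interval from -0.54 to 0.22). The coding probe at chr4:157297971-157298030 changed by -0.82, -1.02 and -0.20 in these 3 comparisons.

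Differences between an effector or BH3-only gene and a guardian on the same array do not depend on the constant subtracted from that array. Quantile normalization and background correction can still move them, and Bcl2 was dim. The differences are given as values without a test, relative to their normoxia mean. Bax minus Bcl2 was 0.28, -0.29 and 0.02 in normoxia, -0.29, -0.39 and 0.28 in hypoxia and -1.29, -1.09 and -1.21 with quercetin. It thus overlapped between normoxia and hypoxia, where both genes fell, and was lower on every quercetin array. The 0.28 in hypoxia comes from replicate 3, on which Bcl2 was not well above background. Bcl2l11 minus Mcl1, read by the brighter Mcl1 probe, was 0.92, 0.83 and 0.68 in hypoxia and 1.75, 1.26 and 1.89 with quercetin, above all normoxia values, which ran from -0.31 to 0.40. Bbc3 minus Bcl2l1 was 1.66, 1.58 and 1.72 in hypoxia and 0.10, 0.96 and 0.08 with quercetin, against -0.61 to 0.49 in normoxia. Hypoxia stood above every other array in this pair, and quercetin replicate 2 lay between hypoxia and the rest.

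Bad minus Bcl2l1 was -0.65, -0.63 and -0.66 in hypoxia and -0.89, -0.45 and -0.73 with quercetin, against -0.14 to 0.11 in normoxia, so that it was lower in both hypoxic groups. Bak1 minus Mcl1 was -0.77, -0.90 and -0.74 in hypoxia. With quercetin it was 0.34 and 0.35 in replicates 1 and 3 and -0.78 in replicate 2, so the quercetin group fell on both sides of normoxia, which ran from -0.15 to 0.10. Both differences that involve Mcl1 depend on which Mcl1 probe is read.

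**Figure D4:**
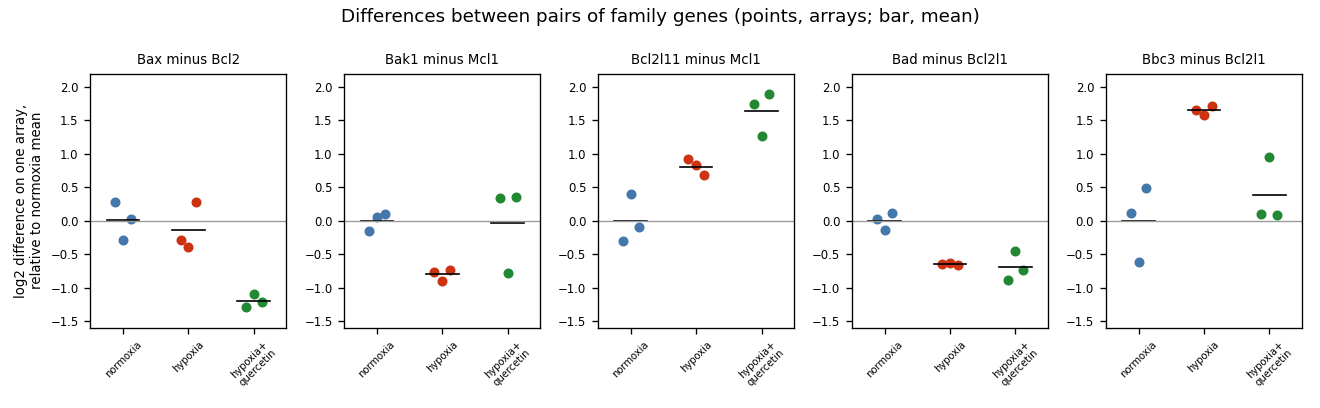
Difference between 5 pairs of family genes on each array (y axis, log2, relative to the normoxia mean) by group (x axis). Points are arrays and bars are means. Bax minus Bcl2 is below -1 on all 3 quercetin arrays only, and Bbc3 minus Bcl2l1 is above 1.5 on all 3 hypoxia arrays only.

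Promoter sequence was matched to see where the core of the hypoxia response element occurs in the family. RefSeq promoters on assembly GRCr8 covered 8 of the 10 genes (not Bax and Bbc3), with 4 starts for Bcl2l1, and 250 bases before each start were searched on both strands for ACGTG and GCGTG. Either word occurred in 36.7% of 33469 promoters of this length and in 3 of the 8 family genes: Bcl2, Bcl2l1 (2 of its 4 starts) and Bcl2l11. Bcl2l11, 1 of the 2 chosen genes that rose in hypoxia and the one with a promoter entry, had 4 matches of GCGTG, a number reached by 0.855% of promoters, and is shown for that reason with the matches in capitals. It lies at chr3:135819792-135820041 (GRCr8, plus strand).
Bcl2l11 promoter: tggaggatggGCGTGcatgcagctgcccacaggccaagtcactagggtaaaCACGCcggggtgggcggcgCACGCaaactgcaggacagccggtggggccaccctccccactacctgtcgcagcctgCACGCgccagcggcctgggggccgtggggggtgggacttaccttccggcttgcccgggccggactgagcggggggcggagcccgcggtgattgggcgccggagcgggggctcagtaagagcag
A match describes the letters in this window and is neither a bound site nor a cause. The threshold of 4 matches was this gene's own count, so the share of 0.855% tests nothing. That share is over promoters of any GC content, and the GC content of this window is 72%. GTAAACA, the word of FOXO factors, occurred in it 1 time and is found in 3.21% of promoters. The window of Bad, which fell in hypoxia, also held GTAAACA, so 2 of the 8 family genes had it. TGATGNAA (N is any base), the word of the stress factors ATF4 and CHOP, occurred in 3.4% of promoters. In the family it was found in Bcl2 and Bcl2l1, and not in Bcl2l11. Bcl2, which fell in hypoxia, held 1 ACGTG, a word that is also part of the E-box CACGTG (in 5.59% of promoters and in 0 of the family's windows).

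Other genes of the family and its BNIP relatives were taken from a list of 16, of which 13 were measured. In hypoxia 5 rose and 5 fell, the other 3 did not pass, and the median was -0.18, while on spike-ins 4 rose and 7 fell. Bmf, which encodes a BH3-only protein tied to the cytoskeleton, rose by 1.47 ± 0.22 (adjusted p = 5.4e-04), and the list's other rises were in Bik, Bnip3, Bnip1 and Bnipl. Bik, a BH3-only gene whose product sits at the endoplasmic reticulum, read -4.61, -4.71 and -3.63 in normoxia, -1.87, -1.85 and -1.87 in hypoxia and -1.19, -3.72 and -3.28 with quercetin. Its change of 2.46 ± 0.60 in hypoxia (0.007) was 1.77 (0.12) with slide as a block and 0.91 (0.096) with normexp. Bnip3, a mitophagy receptor, read 5.41, 3.56 and 5.42 in normoxia and 6.49 to 6.59 in hypoxia, so that normoxia replicate 2 lay far below its group. Its change of 1.74 (0.0083) was 1.12 (6.8e-05) without that array and 1.12 (0.15) with slide as a block. Bnipl changed by 0.87 (0.030), but by 0.23 (0.55) with slide as a block, 0.37 (0.28) on spike-ins and 0.65 (0.10) without normoxia replicate 1, and it did not pass without normoxia replicate 2 or any 1 of the hypoxia arrays.

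The falls in hypoxia were in Bnip2, Hrk, Bok, Bcl2l12 and Bnip3l. Bnip2 fell by 1.36 ± 0.12 (adjusted p = 3.8e-05). Hrk, a BH3-only gene, was well above background on 3 normoxia arrays and on 0 of the other 6. It passed the filter through normoxia alone, so its calls support nothing here. Against the floor used for Bcl2, which gives no strict bound, it was 1.19-fold lower in hypoxia than in normoxia. With quercetin it was 1.54-fold lower than in normoxia. With normexp its values were -0.34 and 0.13. Bok, an effector relative, changed by -0.58 (0.011), Bcl2l12 by -0.58 (0.033) and Bnip3l by -0.33 (0.015), and with slide as a block these were -0.35 (0.19), -0.39 (0.30) and -0.39 (0.055). Bcl2l12 did not pass without normoxia replicate 2 (-0.34, 0.054), hypoxia replicate 1 (-0.57, 0.080) or hypoxia replicate 2 (-0.53, 0.091), and Bnip3l without normoxia replicate 1 (-0.29, 0.055) or hypoxia replicate 1 (-0.27, 0.062). Bcl2l2 (-0.18), Bcl2l10 (-0.53) and Bcl2l15 (0.49) did not pass, and a second Bcl2l2 probe read 0.40.

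With quercetin against hypoxia 3 of the 13 rose and 1 fell. Bnip3l, the second mitophagy receptor of the pair, read 5.65, 5.43 and 5.62 in normoxia, 5.10, 5.28 and 5.32 in hypoxia and 6.80, 6.77 and 6.81 with quercetin, a rise of 1.56 ± 0.10 (adjusted p = 9.1e-06) with all quercetin arrays above the other 6. Bcl2l10, a guardian, rose by 1.53 ± 0.27 (0.0016), and by 0.86 (0.041) with normexp. It was well above background on 2 of the 3 hypoxia arrays, so this rise rests in part on a signal near background. Bnip2 rose by 1.11 ± 0.12 (1.4e-04). Bnip1, which acts in vesicle traffic at the endoplasmic reticulum, read -0.15, -0.34 and -0.25 in normoxia, 1.00, 0.82 and 1.04 in hypoxia and -0.68, -0.58 and -0.58 with quercetin. It rose by 1.20 ± 0.09 in hypoxia (1.9e-05) and fell by 1.56 ± 0.09 with quercetin (8.4e-06), to below normoxia on every array. Bmf changed by -0.52 (0.072), Bnipl by -0.77 (0.053), Bik by -0.87 (0.24) and Bnip3 by -0.23 (0.67), none of which passed. Without normoxia replicate 2, which widened the spread of several of these genes, 5 rose and 3 fell.

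Against normoxia, quercetin-treated hypoxic cells had 4 of the 13 higher (Bnip3l by 1.22, Bnip3 by 1.51, Bcl2l10 by 1.00 and Bmf by 0.95). They had 3 lower (Hrk, Bcl2l12 and Bnip1), of which Hrk passed the filter through normoxia alone and supports nothing here. Bnip3 stood at 0.89 (adjusted p = 3.9e-04) without normoxia replicate 2, 0.89 (0.29) with scan day as a block and 1.10 (0.055) on spike-ins, and did not pass without quercetin replicate 2 (1.47, 0.061) or 3 (1.47, 0.065). Bcl2l10 and Bmf did not pass with scan day as a block (0.32, 0.29 and 0.57, 0.15) or on spike-ins (0.60, 0.097 and 0.55, 0.074), nor Bcl2l10 without normoxia replicate 1 (0.94, 0.055) or quercetin replicate 3 (0.93, 0.059). Bcl2l12 was -0.65 (0.029), and -0.41 (0.037) without normoxia replicate 2, -0.54 (0.091) without quercetin replicate 2 and -0.68 (0.065) without quercetin replicate 3. Bnip1 was -0.37 (0.013), and -0.32 (0.051) without normoxia replicate 1. On spike-ins 1 was higher and 6 lower, with normexp 1 was higher and 0 lower, and with scan day as a block 1 was higher and 1 lower. Without quercetin replicate 3, 2 were higher and 2 lower.

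**Figure D5:**
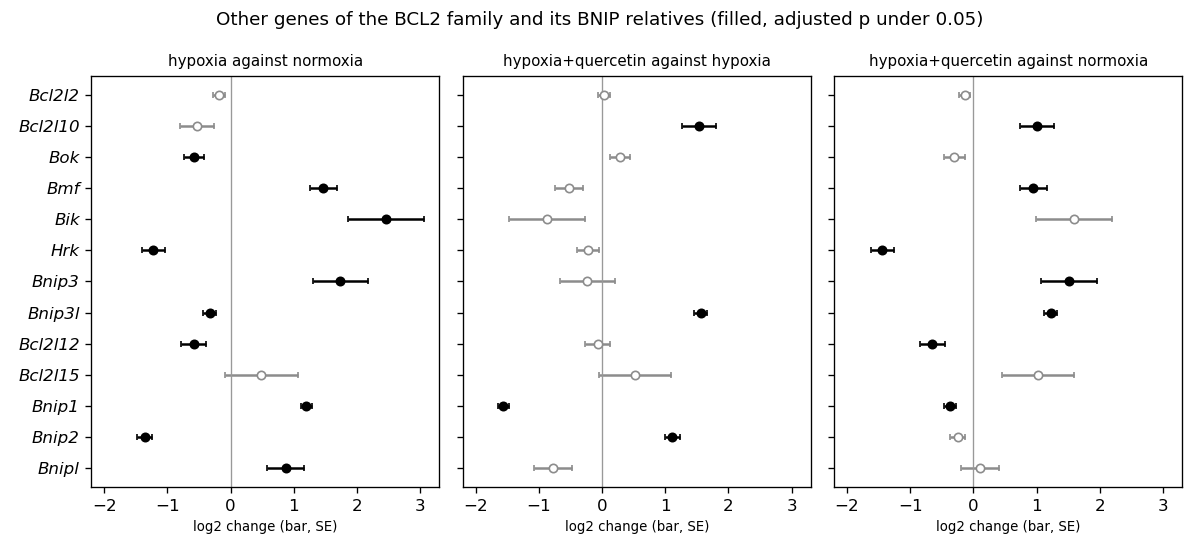
Log2 change ± SE of 13 further family genes and BNIP relatives (rows) in the 3 comparisons (panels), 3 arrays per group. Filled points passed at an adjusted p under 0.05. Bnip1 and Bnip2 lie on opposite sides of 0 in the first and second panels, and Bnip3l is above 1 in both comparisons of the quercetin arrays.

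The counts of the pathway lists that follow stand against those of all genes. In hypoxia 35.3% of all genes rose and 28.9% fell, with quercetin against hypoxia 26.9% rose and 31.6% fell, and against normoxia 23.0% were higher and 21.3% lower with quercetin. Spike-in scaling moved the median of all genes downward in both comparisons with normoxia (-0.40 and -0.36), and the lists' counts on spike-ins are read against that shift.

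Genes that act on the family's proteins were read from a list of 34, 30 of them measured. In hypoxia 12 rose and 5 fell, with a median of 0.14, and on spike-ins 4 rose and 16 fell. Ywhab, a 14-3-3 protein of the kind that holds phosphorylated BAD, fell by 1.77 ± 0.10 in hypoxia (adjusted p = 5.1e-06) and rose by 1.42 ± 0.10 with quercetin against hypoxia (1.6e-05), while its second probe read -0.41 and 0.29. Usp9x, a deubiquitinase that stabilises MCL1, changed by 1.41 and -0.90 at its brightest probe, but 4 further probes ran from -1.42 to 1.18 and from -0.61 to 2.01. With quercetin against hypoxia 4 rose and 10 fell, and on spike-ins 7 rose and 7 fell. Against normoxia 7 were higher and 8 lower with quercetin, and on spike-ins 1 and 17.

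A list of 20 genes, 18 of them measured, held transcription factors known to switch BH3-only genes and some stress genes of other kinds. Among the latter is Trib3, which is counted in the falls in hypoxia and in those lower with quercetin against normoxia. In hypoxia 3 rose and 7 fell, and on spike-ins 3 rose and 12 fell. Myc, which drives growth and can prime cells for death, fell by 1.89 ± 0.17 (adjusted p = 3.8e-05). With quercetin against hypoxia 2 rose and 8 fell, 5 and 8 on spike-ins. Ddit3, the gene of CHOP, a stress factor upstream of Bcl2l11 and Bbc3, fell by 1.44 ± 0.17 (2.0e-04), and E2f1 rose by 2.28 ± 0.19 (3.6e-05), by 1.00 at a second probe. Against normoxia 2 were higher and 9 lower with quercetin, and on spike-ins 1 and 11.

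A list of feedback and arrest targets of the transcription factor p53, called arrest genes below, had 21 measured of 23. Fas and Tnfrsf10b are in this list and also in that of the death receptor route. In hypoxia 8 rose and 7 fell, and on spike-ins 3 rose and 12 fell. Gadd45b rose by 2.10 ± 0.23 (adjusted p = 1.0e-04) and fell by 1.62 ± 0.23 with quercetin against hypoxia (5.0e-04). In that comparison 10 of the list rose and 2 fell, with a median of 0.32 against -0.08 over all genes, and on spike-ins 11 rose and 2 fell. With normexp 3 rose and 1 fell. Ei24, which takes part in autophagy, rose by 1.11 ± 0.08 (1.6e-05) and Ddb2, a DNA damage sensor, by 1.21 ± 0.17 (4.1e-04). Against normoxia 10 were higher and 3 lower with quercetin, and on spike-ins 6 and 6.

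Downstream of the family, all 21 listed genes of mitochondrial release and the apoptosome were measured. In hypoxia 6 rose and 5 fell, and on spike-ins 2 rose and 12 fell. Apaf1, the scaffold of the apoptosome, rose by 1.44 ± 0.13 (adjusted p = 4.3e-05), while Aifm1, a flavoprotein released from mitochondria, fell by 1.29 ± 0.08 (8.0e-06). Cycs, which encodes cytochrome c, fell by 1.22 ± 0.12 (4.7e-05), and its further probes read -2.31 and -1.83. With quercetin against hypoxia 6 rose and 7 fell, 6 and 6 on spike-ins. Aifm1 rose by 0.71 ± 0.08 in this comparison (2.0e-04). Against normoxia 3 were higher and 7 lower with quercetin, and on spike-ins 0 and 10.

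Of 15 genes of the death receptor route that feeds Bid, 11 were measured. In hypoxia 4 rose and 4 fell, on spike-ins 0 rose and 6 fell, and with slide as a block 0 rose and 4 fell. Without hypoxia replicate 1, 1 rose and 4 fell. Casp8, which encodes the protease that cuts BID, fell by 1.01 ± 0.10 in hypoxia (adjusted p = 4.4e-05) and by 0.93 ± 0.10 with quercetin against hypoxia (8.6e-05), with normexp values of -0.51 (0.30) and 0.02 (0.98). Tnfrsf1a, a receptor for tumour necrosis factor, fell by 1.32 ± 0.10 with quercetin against hypoxia (2.3e-05), where 2 of the list rose and 4 fell. Against normoxia 2 were higher and 5 lower with quercetin, with 0 and 7 on spike-ins, 0 and 2 with normexp, 0 and 4 with scan day as a block and 0 and 4 without quercetin replicate 3.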

How the data were processed

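RNA of 9 PASMC samples was measured on 9 arrays. Per the file headers, Feature Extraction 10.7.3.1 produced the deposited intensity of each spot, background-subtracted, with probe positions on rn4. Per the labels a miRNA kit was used for labelling, but the arrays carry mRNA probes and their headers name a protocol for gene expression, and the sources used here do not settle which applied. The deposited value table of log2 values was used only as an alternative, and the sources used here do not say how the authors made it.

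Control spots (1639 per array) were left out, outlier spots (71 to 148 per array) set missing, and no spot was saturated. The log2 processed intensity was averaged over the spots of a probe, and each array's 75th percentile subtracted. A gene took its brightest kept probe. Of 41012 probes, 18028 were named by accession, 3168 by current symbol and 400 by synonym in a RefSeq table (GRCr8), and 19416 kept the file's name. Group means of all 9 arrays entered 1 limma 3.58.1 fit in R 4.3.3 (lmFit, eBayes), two-sided, with Benjamini-Hochberg adjustment over all genes, or over all kept probes where stated. The fit was tested on simulated data.

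The labels do not say that replicates came from separate cultures, so p-values reflect only how far these samples spread, possibly for technical reasons, and the number of arrays limits the precision. The members and gene lists were chosen with earlier results of these data known. All 10 members and the 13 measured further family genes were named, and from each other list up to 4 genes per comparison with the smallest adjusted p, apart from some that are not reported here. Alternatives were other scalings (quantile, median, spike-in), normexp background correction, the deposited table, filters on dim probes, other choices among a gene's probes, outlier spots kept, blocks for replicate number, slide and scan day, 2 groups alone, and each array left out.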

Additional observations from a re-analysis of the deposited data

How the results depend on the processing

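The number of changed family genes stayed within 1.5 times of the main count under all but the following settings. With normexp background correction 5, 0 and 2 family genes passed in hypoxia against normoxia, quercetin against hypoxia and quercetin against normoxia, in place of 8, 6 and 5, and over all genes 6721, 6166 and 3171 in place of 14195, 12915 and 9793. Its offset of 50 is close to or above the intensity of the dimmest family probes, which it pulls together by construction. In quercetin against hypoxia normexp also lost Bcl2l1, Bax, Bak1, Bad and Bbc3, and the probes that stood for these genes read far above this offset. Why these calls were lost was not tested. With scan day as a block 3 family genes and 5818 genes in all passed in quercetin against normoxia. Leaving out 1 array at a time gave 8 to 9, 3 to 7 and 5 to 6 family genes and 12335 to 14414, 10998 to 14036 and 7699 to 9880 genes in all, and the 3 came without hypoxia replicate 2 and without quercetin replicate 3. With the replicate number as a block 8, 5 and 5 family genes passed, and only Bax in quercetin against hypoxia was lost (0.30, adjusted p = 0.064). Samples that share only a number did not deviate together (correlations from -0.27 to 0.02). Signs that turned were those of changes that had not passed: Mcl1 in hypoxia (-0.14 on spike-ins, -0.16 over both probes), Bid in quercetin against hypoxia (0.00 with normexp), Bbc3 in quercetin against normoxia (-0.25 on spike-ins, -0.19 with scan day as a block, -0.09 without normoxia replicate 2, -0.06 without quercetin replicate 2) and Mcl1 there (0.07 and 0.05 without quercetin replicates 1 and 3). With 1 array left out, these ran from -0.09 to 0.32 for Bbc3 and from -0.44 to 0.07 for Mcl1. Of the pathway lists, with normexp 4 further family genes (10 in the main setting), 8 regulators (17), 9 arrest genes (15) and 4 death receptor genes (8) passed in hypoxia against normoxia. In quercetin against hypoxia it was 8 regulators (14), 4 arrest genes (12) and 8 release genes (13). In quercetin against normoxia it was 1 further family gene (7), 6 regulators (15), 7 genes of the transcription factor list (11), 8 arrest genes (13) and 2 death receptor genes (7). With slide as a block 5 further family genes, 7 release genes (11) and 4 death receptor genes passed in hypoxia, and with scan day as a block 2, 5 regulators and 4 death receptor genes in quercetin against normoxia. Without a filter on dim probes 5 death receptor genes passed in hypoxia and 9 regulators in quercetin against hypoxia, and with the 2 groups alone 8 further family genes (4) in the latter. With only the compared groups in the fit, Mcl1 passed in hypoxia against normoxia (0.37, adjusted p = 0.0084). The cause of these shifts was not tested.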
